A study of Mus musculus with 3 samples.

Results

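The Obox genes, oocyte-specific homeobox genes of the mouse, were described in metaphase II oocytes, the arrested stage of the mature egg before fertilization. Every transcript whose symbol starts with Obox was taken from a table of 9126 RefSeq transcripts of 6104 gene symbols, and 4 were found: Obox2 (NM_145708), Obox3 (NM_145707), Obox5 (NM_145709) and Obox7 (NM_001038676), with 1 transcript per gene. The table came from 3 libraries of oocytes of the ICR mouse strain, 1 per group. The aged-sec library held aged oocytes matured with the secretome, culture medium that had been conditioned by mesenchymal stem cells of the human umbilical cord, mixed 1 to 1, the aged library held aged oocytes without it, and the young library held young oocytes without it. Groups were taken from the sample titles, because the treatment field names the secretome on all 3 samples, and the labels used here give no ages for the mice. All oocytes entered M16 medium as germinal vesicle oocytes and matured there for 16 to 18 h. Each library pooled 20 oocytes from 4 mice and was made with SMART-Seq2 cDNA. With 1 library per group there is no replicate error and no p-value, and every difference is one between 3 libraries. Within such pools, fewer oocytes carrying an mRNA and less of that mRNA per oocyte cannot be told apart.

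Obox genes code for homeodomain transcription factors, proteins that bind DNA through a homeodomain of 3 helices. In the mouse, Obox1, Obox2, Obox5 and Obox7 mRNAs are made in the growing oocyte and stored, Obox3 is transcribed mainly in the embryo after fertilization, and the family is known to help start transcription of the embryonic genome. Levels are given in TPM, a unit scaled for transcript length and to a total of 1000000 transcripts per library, so levels of different genes can be set side by side. No listed transcript has an aged over young ratio under 1.2, so each is higher in the aged library by construction of the table. Obox5 lay just inside that limit, with 61 transcripts at a lower ratio. Levels of the other family members Obox1, Obox6 and Obox8 were not analysed here, and only their reference sequences were used.

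The 4 genes lie in 1 cluster on chromosome 7 (RefSeq annotation of assembly GRCm38.p6). Obox7 spans chr7:14659708-14665996, Obox2 chr7:15388851-15398545, Obox3 chr7:15625306-15639777 and Obox5 chr7:15750370-15759274. Between Obox7 and Obox5 the annotation has 0 protein-coding genes of another family, and 45 Obox pseudogenes lie on the same chromosome. The sources used here do not name the genome build behind the deposited values, so these positions are those of the reference annotation.

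The coding stretch below shows where the reference transcript of Obox2 departs from the other members. It covers much of the homeobox, is read from GENCODE transcripts of GRCm38 and crosses 1 exon junction. It runs from exon 3 to exon 4 in Obox2 (chr7:15397282-15397869, plus strand), Obox5 (chr7:15757973-15758574, plus strand) and Obox7 (chr7:14664474-14665303, plus strand), and from exon 4 to exon 5 in Obox3 (chr7:15626290-15626901, minus strand). Capitals mark the bases that differ from Obox2, including 1 base that Obox2 lacks.
Obox2: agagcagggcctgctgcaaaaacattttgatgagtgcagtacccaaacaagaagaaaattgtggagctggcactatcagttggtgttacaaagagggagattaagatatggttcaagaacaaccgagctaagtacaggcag
Obox5: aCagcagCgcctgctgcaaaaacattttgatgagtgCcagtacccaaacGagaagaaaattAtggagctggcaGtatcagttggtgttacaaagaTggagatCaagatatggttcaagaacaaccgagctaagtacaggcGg
Obox7: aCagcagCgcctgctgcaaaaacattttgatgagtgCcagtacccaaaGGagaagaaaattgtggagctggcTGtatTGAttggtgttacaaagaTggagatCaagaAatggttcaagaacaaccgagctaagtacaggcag
Obox3: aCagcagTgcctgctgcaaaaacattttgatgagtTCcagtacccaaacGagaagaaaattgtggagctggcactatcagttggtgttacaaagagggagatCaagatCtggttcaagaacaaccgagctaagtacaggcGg

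Relative to Obox2, the stretch had 8 other bases in Obox5, 12 in Obox7 and 7 in Obox3, and each of these genes had 1 base more. The extra base was placed after coding base 347 of Obox2, in codon 116, and in each gene a neighbouring place aligns equally well. Obox1, the nearest relative of Obox2, differed at 3 bases of the stretch and also had the extra base. The annotated reading frame of Obox2 had 151 codons, against 291 in Obox5, 335 in Obox3, 218 in Obox7 and 204 in Obox1. The letters typical of the third homeodomain helix, a tryptophan-phenylalanine pair followed by asparagine and arginine, were read in frame from codon 141 in Obox5, Obox7 and Obox3, and were not found in the annotated frame of Obox2. These are sequences of the C57BL/6J reference, and whether the ICR mice carry the same base was not tested.

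The upstream sequences are shown because the 4 mRNAs differ by orders of magnitude in level while their promoters share blocks. Each runs from 120 bases before to 30 bases after the RefSeq start (GRCm38.p6), and capitals mark a run of 40 bases that is identical in Obox5, Obox7 and Obox3. The windows are chr7:15388731-15388880 (Obox2, plus strand), chr7:15750250-15750399 (Obox5, plus strand), chr7:14659588-14659737 (Obox7, plus strand) and chr7:15639748-15639897 (Obox3, minus strand).
Obox2: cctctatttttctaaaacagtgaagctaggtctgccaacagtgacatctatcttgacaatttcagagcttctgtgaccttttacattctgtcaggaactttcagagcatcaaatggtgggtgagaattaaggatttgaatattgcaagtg
Obox5: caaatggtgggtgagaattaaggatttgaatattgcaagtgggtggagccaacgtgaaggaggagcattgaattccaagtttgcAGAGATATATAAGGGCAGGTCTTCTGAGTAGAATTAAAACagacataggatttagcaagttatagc
Obox7: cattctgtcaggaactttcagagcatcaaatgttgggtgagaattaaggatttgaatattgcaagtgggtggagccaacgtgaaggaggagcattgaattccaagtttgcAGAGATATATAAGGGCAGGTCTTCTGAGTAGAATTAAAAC
Obox3: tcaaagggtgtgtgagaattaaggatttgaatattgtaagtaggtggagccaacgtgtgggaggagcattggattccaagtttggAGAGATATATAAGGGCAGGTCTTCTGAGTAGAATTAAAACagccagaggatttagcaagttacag

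The shared run begins 36 bases before the start in Obox5, 35 before it in Obox3 and 10 before it in Obox7. In Obox2 the same run lies inside the annotated transcript, 73 bases downstream of the RefSeq start, so the starts of these genes are annotated at unlike places in a common sequence. Of 32851 RefSeq promoters (250 bases before to 50 after the start), 4 hold this run, and they are those of Obox1, Obox3, Obox5 and Obox7. It contains the TATA-like letters TATATAAG, chosen after the sequences were seen, which 1.01% of all promoters hold on either strand. Over the 300-base promoters, Obox5 and Obox7 were identical at 97.8% of 274 aligned bases, and Obox2 and Obox5 at 95.8% of 191. Obox3 was less alike, at 78.6% of 280 aligned bases with Obox5.

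Motifs were searched on both strands of the same windows. The TATA box TATAAA was found once, in Obox3 at position -189, and 13.6% of all promoters hold it. The letters GGATTA, bound by homeodomains of the Bicoid and OTX type, were also found once, in Obox3 at -168, against 7.06% of all promoters. The letters TAATTG and TAATTA, bound by the oocyte homeodomain protein NOBOX, were found in 0 of the 4 promoters, and 2628 and 1738 of the 32851 promoters hold them. The E box CANNTG, which 72.3% of all promoters hold, was found at 4 places in Obox2, at 2 each in Obox5 and Obox7, and at 0 in Obox3. TATATAAG does not overlap any of these matches.

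Obox2 had 20323 TPM in the aged-sec, 18633 TPM in the aged and 10491 TPM in the young library. Obox5 had 18664 TPM in the aged-sec, 16166 TPM in the aged and 13442 TPM in the young library. Both ranked among the 3 most abundant transcripts of the table in each library, next to Mphosph6, an exosome-associated factor. Obox7 had 3930 TPM in the aged-sec, 2778 TPM in the aged and 2195 TPM in the young library, at rank 14, 18 and 17. Obox3, the gene transcribed mainly after fertilization, had 7.66 TPM in the aged-sec, 5.83 TPM in the aged and 4.34 TPM in the young library. Obox2, Obox5 and Obox7 were above 1000 TPM and Obox3 below 10 TPM in all 3 libraries.

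**Figure D1:**
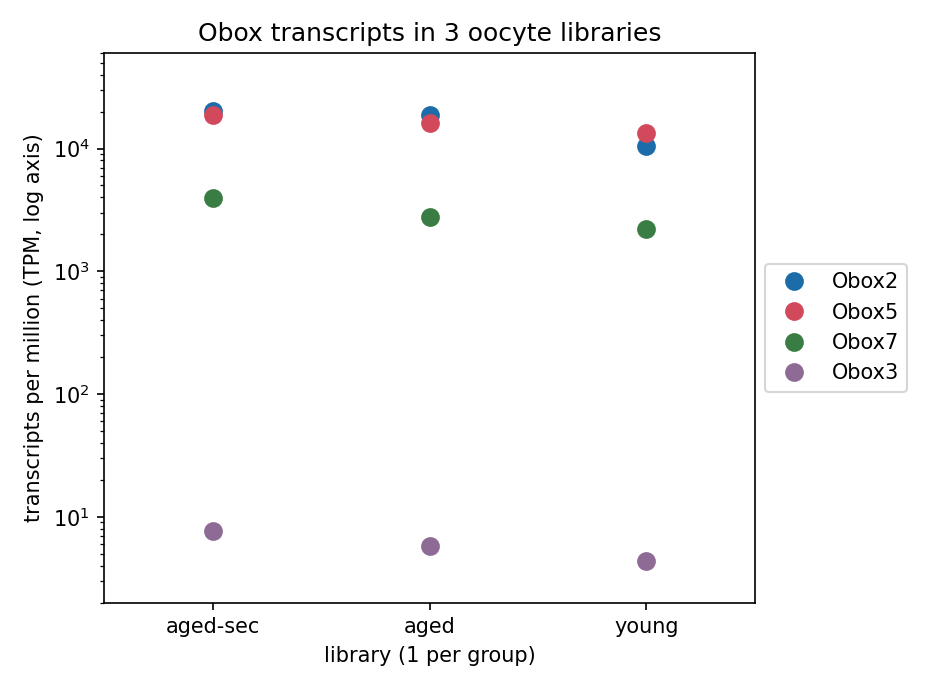
TPM of the 4 Obox transcripts (log axis) in the aged-sec, aged and young libraries, 1 point per library. Obox2 and Obox5 lie between 10491 and 20323 TPM, Obox7 between 2195 and 3930 TPM and Obox3 between 4.34 and 7.66 TPM.

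The order of the 2 leading members differed between libraries. Obox2 stood at 1.09 times the Obox5 level in the aged-sec library and at 1.15 times in the aged library, but at 0.78 times in the young library. This ratio compares transcripts within a library, so a scaling of the whole library leaves it as it is. Obox7 stood at 0.211 times the Obox5 level in aged-sec, 0.172 times in aged and 0.163 times in young oocytes. Neighbours in this order cannot be told apart by any spread, since each value comes from 1 library.

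As a share of all transcripts, the 4 Obox mRNAs together held 4.29% in aged-sec, 3.76% in aged and 2.61% in young oocytes. Among the Obox transcripts, Obox2 made up 47.3% of the sum in aged-sec, 49.6% in aged and 40.1% in young oocytes. Obox5 made up 43.5% in aged-sec, 43.0% in aged and 51.4% in young oocytes, and Obox7 made up 9.16% in aged-sec, 7.39% in aged and 8.40% in young oocytes.

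**Figure D2:**
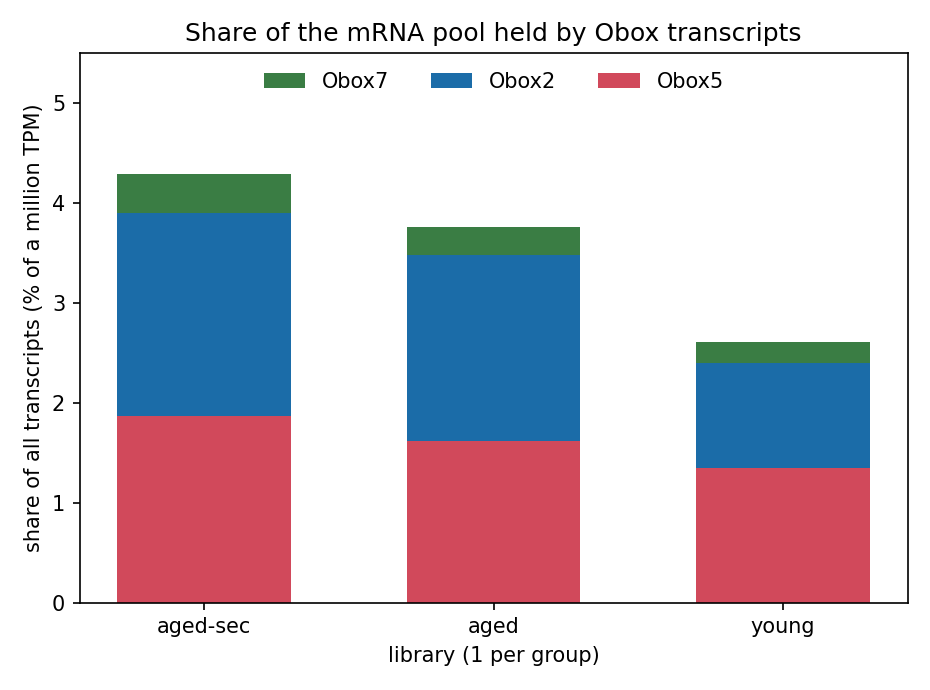
Share of all transcripts (percent of the 1000000 TPM of a library, axis from 0) held by Obox7, Obox2 and Obox5 in the aged-sec, aged and young libraries, as stacked bars without error because each group is 1 library. The Obox3 share is too small to draw. The 4 genes sum to 4.29%, 3.76% and 2.61%.

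Between aged and young oocytes the ratios are a description only, since the table was selected on them. Obox2 had an aged over young ratio of 1.78, Obox3 of 1.34, Obox7 of 1.27 and Obox5 of 1.20, all above 1 as the table requires. Scaling the listed transcripts to equal medians puts all 4 log2 ratios below 0, and equal upper quartiles all but that of Obox2. Both scalings are set on the selected transcripts, so these signs also depend on the selection. The median ratio over all listed transcripts was 1.71, so Obox2 lay close to it and the other members below it. A size rule, which asked for 10 TPM or more in the higher library and a 2-fold or larger ratio after adding 0.5 TPM, was met by 0 of the 3 Obox transcripts with enough TPM. Over the table it was met by 18.2% of 2186 transcripts. Abundant transcripts had smaller ratios: among the 40 with at least 1000 TPM in aged oocytes the median was 1.30, and there Obox2 had the second highest ratio and Obox5 the lowest. The difference in TPM, aged minus young, was 8142 for Obox2, the largest of all 9126 transcripts, and 2724 for Obox5, at rank 4.

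The Obox transcripts made up 12.0% of the difference between the summed TPM of listed transcripts, which were 324814 in the aged and 229243 in the young library. This is close to their share of those sums, 11.6% in the aged and 11.4% in the young library. Their own sum was 37583 TPM in aged and 26132 TPM in young oocytes, a ratio of 1.44.

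Aged-sec oocytes were set against aged oocytes to see how mRNA levels differed when the secretome was present during maturation. All 4 Obox transcripts were higher in the aged-sec library. Both scalings of the listed transcripts raise every aged-sec over aged ratio, so they could not reverse this. Obox7 had the largest aged-sec over aged ratio, 1.41, followed by Obox3 at 1.31, Obox5 at 1.15 and Obox2 at 1.09. None of the 3 with enough TPM met the size rule, which 0.223% of 2239 transcripts met in the higher and 2.95% in the lower direction. Of all listed transcripts 28.4% were higher in aged-sec than in aged oocytes. The aged-sec over aged ratio varied with level, so transcripts of like level are the closer comparison in that respect. Listed transcripts of every level were selected for an aged value above the young one, so likeness of level does not remove that selection.

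Among the 40 transcripts with at least 1000 TPM in aged oocytes, 55.0% were higher in the aged-sec library, and the median ratio was 1.02. Within these 40, Obox7 had the highest ratio, Obox5 ranked 6 and Obox2 ranked 12. Obox3 ranked 107 among 1820 transcripts from 3 to 10 TPM, of which 26.1% were higher in the aged-sec library and whose median ratio was 0.827. These level classes were chosen after the values were seen.

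**Figure D3:**
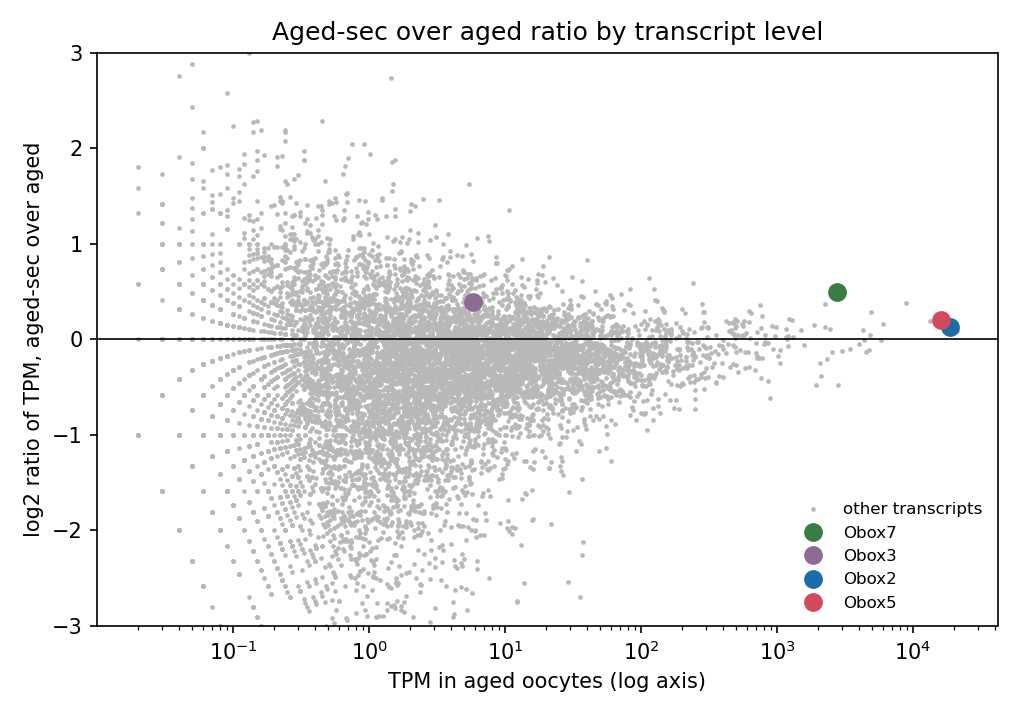
Log2 ratio of TPM, aged-sec over aged with nothing added, against TPM in aged oocytes (log axis), 1 point per transcript, with the 4 Obox transcripts in colour. The axis ends at 3 in both directions and 162 transcripts lie outside it. All 4 Obox points lie above the line at 0, Obox7 highest. Both other scalings raise every ratio drawn here, so they could not bring these points below the line.

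In absolute terms, aged-sec minus aged, Obox5 differed by 2498 TPM, Obox2 by 1690 TPM and Obox7 by 1152 TPM, which were the differences at rank 2, 4 and 6 of all listed transcripts. Such differences depend on level. By the aged-sec over aged ratio, Obox5 ranked 1551, Obox2 1931 and Obox7 754 of 9126. The Obox sum was 42925 TPM in aged-sec and 37583 TPM in aged oocytes, a ratio of 1.14. The listed transcripts without the Obox genes fell by 8696 TPM in sum between the same libraries. TPM add up to a fixed total only over all transcripts, and the listed ones held 32.1% of it in aged-sec and 32.5% in aged oocytes. Whether this fall is linked to the higher Obox sum was not tested.

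Set against young oocytes, the aged-sec library held more of all 4 transcripts as deposited, although under either scaling of the listed transcripts the log2 ratio of Obox5 turned to -0.11 and -0.06. Obox2 had an aged-sec over young ratio of 1.94, Obox7 of 1.79, Obox3 of 1.76 and Obox5 of 1.39. None of the 3 with enough TPM reached the size rule, which 17.1% of 1999 transcripts met in the higher and 0.450% in the lower direction. The share of all transcripts that were higher in aged-sec than in young oocytes was 75.8%. As deposited, the aged-sec value of all 4 was farther from the young value than the aged value was, but under both scalings this held for Obox2 alone, and for Obox3, Obox5 and Obox7 the aged value was the farther one. Both scalings are set on transcripts selected as higher in aged oocytes and lower every aged over young ratio. They therefore cannot decide which value lies farther from the young one. The 3 comparisons share libraries, so their ratios do not add independent support to each other.

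How far the members can be told apart by sequence bears on these values, because a quantification program has to divide short reads that match several near-identical transcripts. Obox2 was identical to Obox1 at 99.2% of 1459 aligned transcript bases, to Obox7 at 94.1% and to Obox5 at 93.3%. Of the 100-base windows of the Obox2 transcript, 42.5% occurred unchanged in transcripts of another gene, and with windows of 50 bases this was 63.0%. Of these shared windows, Obox1 held all of the 100-base ones and 95.5% of the 50-base ones. The Obox2 value is therefore uncertain as a measure of Obox2 alone, and the part of Obox1 in it was not tested.

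Obox5 and Obox7 were easier to separate. Of 100-base windows, 0.1% in Obox5 and 2.7% in Obox7 occurred in another gene, and of 50-base windows 13.0% and 20.2%. Obox3 shared 19.9% of its 100-base windows and 40.6% of its 50-base windows, mostly with the pseudogene Obox3-ps3. Whether reads of other family members enter its low value, 4.34 to 7.66 TPM, was not tested. The sources used here do not state the read length, so both window sizes are examples.

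**Figure D4:**
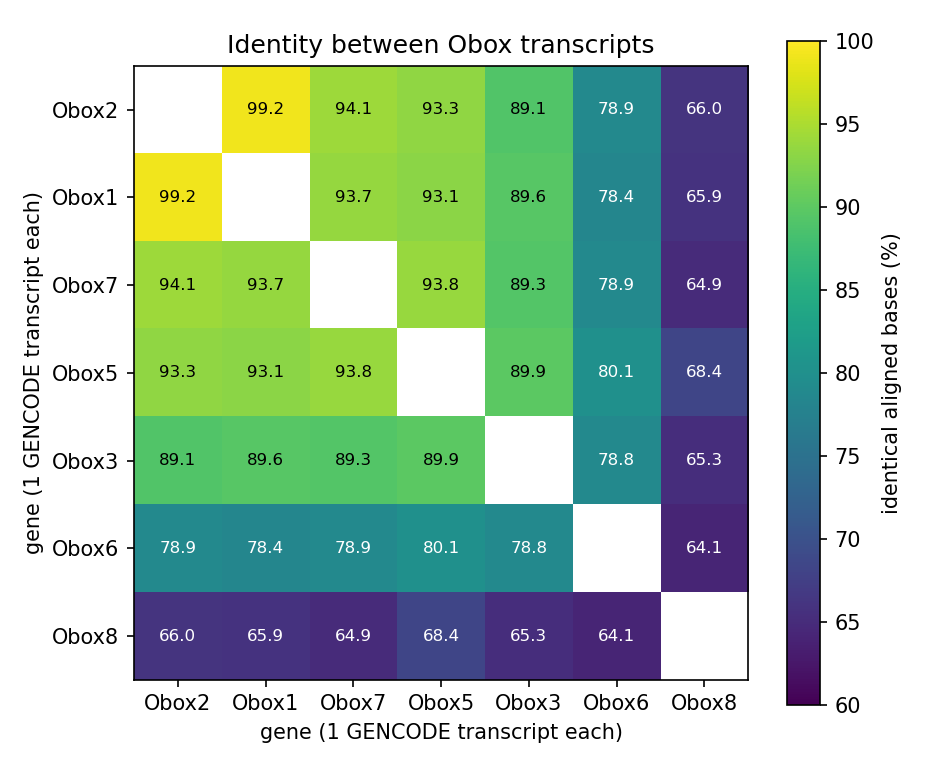
Percent of identical bases among aligned bases between transcripts of 7 Obox genes, 1 GENCODE transcript per gene. Obox2 and Obox1 are most alike at 99.2%, Obox7, Obox5 and Obox3 are between 89.1% and 94.1% identical to Obox2, and Obox6 and Obox8 are the most distant.

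Other genes of the same kind were set beside the Obox transcripts with 1 transcript per gene, at a minimum of 1 TPM in the highest library. Of 37 transcription factors of the oocyte and early embryo, 17 had such a transcript, and such genes are called detected. A gene can also be missing because its aged over young ratio is under 1.2, so absence does not show a low level. Between aged-sec and aged oocytes 4 of the 17 were higher and 13 lower. Of all 4320 detected genes, 1124 were higher and 3186 lower. The median log2 ratio was -0.22 in the list, -0.23 over all detected genes and 0.29 over the 4 Obox transcripts. Levels were unlike, since the list reached at most 79.1 TPM and 3 Obox transcripts exceeded 1000 TPM. The median aged-sec over aged log2 ratio was 0.02 over transcripts with at least 1000 TPM in aged oocytes and -0.25 over those from 3 to 10 TPM. Of the 17, 7 had enough TPM in this pair and 0 of them met the size rule, which 3 of 1789 detected genes (0.168%) met as higher and 39 (2.18%) as lower. The most abundant was Nfyc, a subunit of the CCAAT-binding factor NF-Y, at 52.9 TPM in aged-sec, 79.1 TPM in aged and 33.3 TPM in young oocytes. Next came Yap1, a coactivator of the Hippo pathway, at 43.2 TPM in aged-sec, 50.7 TPM in aged and 41.5 TPM in young oocytes. In aged over young, where 7 had enough TPM, the size rule was met by 3, Nfyc, Trim24 and Tbpl2, against 280 of 1759 detected genes with enough TPM (15.9%). Tbpl2, an oocyte TATA-binding protein relative, stood at 27.4 TPM in aged-sec, 28.1 TPM in aged and 12.4 TPM in young oocytes, and Trim24, a chromatin reader, at 27.2 TPM in aged-sec, 29.1 TPM in aged and 13.6 TPM in young oocytes.

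Other homeodomain genes were collected by the stems of their symbols. There were 21 detected, a number that includes Arxes1, Arxes2 and Paxip1, which the stems matched by spelling only. Here too, absence can mean an aged over young ratio under 1.2. Of the 21, 7 were higher and 14 lower in the aged-sec than in the aged library, with a median log2 ratio of -0.39, next to the -0.23 over all detected genes. Of all 4320 detected genes, 1124 were higher and 3186 lower, so these counts are not read as a result about the list. Only 2 of the 21 had enough TPM for the size rule, too few for a count to be read. Meis2, a TALE-class homeodomain factor, was the most abundant at 302 TPM in aged-sec, 320 TPM in aged and 205 TPM in young oocytes. Arxes2 was next, at 18.4 TPM in aged-sec, 24.4 TPM in aged and 18.0 TPM in young oocytes. The listed transcripts of the other 19 genes stood below 10 TPM in all 3 libraries. Obox2, Obox5 and Obox7 therefore exceeded every transcript used for this list in each library. Transcripts with an aged over young ratio under 1.2 are not listed, so the level of a whole gene can be higher.

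Transcripts with the most similar pattern were found by the Euclidean distance over both log2 ratios, aged over young and aged-sec over aged, among 1723 symbols with at least 10 TPM in 1 library. They rest on 3 libraries. Nearest to Obox5 were Snrpd1, an Sm core protein of the spliceosome, at a distance of 0.01, and Kit, the receptor of the oocyte for Kit ligand, also at 0.01, followed by Rab21, Pde3b and Lin7c. Snrpd1 had 1486 TPM in aged-sec, 1296 TPM in aged and 1075 TPM in young oocytes. Nearest to Obox2 was Hnrnpa3, an RNA-binding protein, at a distance of 0.03, followed by Ap4s1, Eapp, Osbpl11 and Pik3c2a. Nearest to Obox7 was Tprgl at 0.02, followed by Rps15a, Metap2, Ins2 and Tram1. Nearest to Obox3 was Rbis at 0.01, followed by Arap2, Aspm, Thoc7 and the unnamed locus LOC102638047.

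The chromosomal neighbours of the cluster were mostly not in the table. Absence can mean an aged over young ratio under 1.2 and does not show a low level. Of the 19 protein-coding genes of other families within 10 genes of an Obox member, 1 had a listed transcript. The share of all protein-coding genes with a listed transcript was not computed, so this count is not read as a result about the neighbours. The listed neighbour was Napa, a vesicle fusion factor, at 0.14 TPM in aged-sec, 0.46 TPM in aged and 0.21 TPM in young oocytes.

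Markers of the labelled cell type and of other cells were looked up. Transcripts are listed by their aged over young ratio, so a marker that is not listed says nothing about cell type or purity. Of 14 oocyte markers 4 were listed, summing to 851 TPM in aged-sec, 886 TPM in aged and 629 TPM in young oocytes, led by the growth factor Bmp15. Of 12 cumulus and granulosa cell markers 2 were listed, Fshr and Hsd3b1. Fshr had 0.22 TPM in aged-sec, 0.55 TPM in aged and 0.03 TPM in young oocytes, and Hsd3b1 had 0.89 TPM in aged-sec, 1.19 TPM in aged and 0.04 TPM in young oocytes. Of 5 leukocyte markers 1 was listed, at no more than 0.02 TPM, of 3 endothelial markers 2, summing to between 2.52 and 5.42 TPM, and of 3 erythroid markers 0. The other markers were not analysed here.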

How the data were processed

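RNA of 3 oocyte pools was measured from SMART-Seq2 cDNA with transposon-based libraries on the DNBSEQ platform, as the design text says and per the labels' protocols. SMART-Seq2 primes on poly(A) tails. The authors deposited 1 table of TPM for RefSeq transcripts, per the file headers. Its ratio columns, aged over young and aged-sec over aged, are the authors' own, per the file headers, and match quotients taken from the TPM values to a relative error of 6.6e-07. The aligner, the program for quantification and the genome build were not named in these sources. The lowest aged over young ratio is 1.2, so the table is a selected part of each library, and depth is unknown from TPM. Precision is limited by 1 library per group.

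Values were taken as deposited, with Python 3.11.15, pandas 2.3.3 and numpy 2.4.6. Log2 ratios had 0.5 TPM added. Plain ratios had nothing added. The size rule asked for 10 TPM or more in the higher library and an absolute log2 ratio of 1 or more. It was checked on simulated data without noise, which does not show how it performs on single libraries. No test was run. All 4 Obox accessions matched RefSeq. Promoters came from RefSeq (GRCm38.p6) and transcripts from GENCODE M21, aligned with Biopython 1.88. The members, gene lists and comparisons were chosen with earlier results of these data known. The named genes were all Obox transcripts, the 5 nearest patterns to each, list members under the size rule (up to 4), the 2 most abundant of each list, and neighbours within 10 genes. Alternatives were other pseudocounts, other scalings, other minimums, curated transcripts only and gene sums.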

Additional observations from a re-analysis of the deposited data

How the results depend on the processing

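No paired analysis was possible because each group has 1 library. Pseudocounts of 0 and 1 TPM moved no Obox log2 ratio by 0.1 or more, and the sum of listed rows equals the single row of each gene. Scaling mattered more. It was computed on listed transcripts only, which were selected as higher in aged oocytes. As deposited, the median log2 ratio over all listed transcripts was 0.48 for aged over young, -0.19 for aged-sec over aged and 0.30 for aged-sec over young, and equal medians brought these to -0.08, 0.05 and -0.05. With equal medians the aged over young log2 ratio was -0.12 for Obox2, -0.48 for Obox3, -0.68 for Obox5 and -0.61 for Obox7, with a median of -0.54 over the 4 in place of 0.36. With equal upper quartiles it was -0.33 for Obox3, -0.52 for Obox5 and -0.45 for Obox7, with a median of -0.39, while Obox2 stood at 0.04. The median aged-sec over aged log2 ratio of the 4 was 0.29, and 0.63 with equal medians and 0.52 with equal upper quartiles. The median aged-sec over young log2 ratio was 0.80, and 0.24 and 0.28 under these scalings, where Obox5 stood at -0.11 and -0.061. In each of these settings 0 Obox transcripts met the size rule.

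Over the whole table, 398 transcripts met the size rule as higher in aged than in young oocytes, against 47 with equal medians, 57 with equal upper quartiles, 1284 with a minimum of 1 TPM, 1364 with none and 223 with curated transcripts only. Between aged-sec and aged oocytes 5 were higher and 66 lower. This became 20 and 22 with equal medians, 10 and 31 with equal upper quartiles, 45 and 484 with a minimum of 1 TPM, 45 and 521 with none, and 2 and 39 with curated transcripts only. With 1 TPM added 3 were higher. Between aged-sec and young oocytes 341 were higher and 9 lower. This became 76 and 54 with equal medians, 80 and 42 with equal upper quartiles, 960 and 69 with a minimum of 1 TPM, 1021 and 76 with none, and 178 and 5 with curated transcripts only. The cause of these changes was not tested beyond the construction of each setting.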
